A study of Mus musculus with 8 samples.

Results

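Gfap, Vim and Serpina3n are genes by which reactive astrocytes are commonly recognised. They were taken by name, as every probe set whose annotation on the Affymetrix MG U74Av2 array gives 1 of these symbols. This gave 4 probe sets of 12422 tested, or 3 genes of 8251. Gfap was represented by 2 probe sets, 94144_g_at and 94143_at, Vim by 101046_at and Serpina3n by 104374_at. Spinal cord RNA came from female SJL/J mice, with no genotype named beyond the strain, aged 8 to 12 weeks by the labels. In the EAE group (experimental autoimmune encephalomyelitis, a mouse model of multiple sclerosis) PLP peptide was injected under the skin of the flank, and the healthy control group received the vehicle. By the paper's methods the peptide for EAE was given in complete Freund's adjuvant, and the mice were also injected with pertussis toxin. The methods name neither for the healthy controls, and their effects were not tested apart from that of EAE. Each array held the RNA of 2 pooled animals, so 5 EAE arrays stood for 10 mice and 3 control arrays for 6 mice, and p-values measure the spread between these pools. EAE mice had an average grade of 2.5 and were killed on day 14 for arrays EAE 1 and EAE 4, between days 12 and 14 for EAE 2, on day 17 for EAE 3 and on day 15.5 for EAE 5. They were also given murine serum albumin intravenously 3 hours before death. No such injection is named for controls, so its effect and that of EAE cannot be told apart.

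Astrocytes respond to injury, infection and inflammation of the central nervous system with a change of shape and gene expression called reactive gliosis. Glial fibrillary acidic protein, the product of Gfap, forms the intermediate filaments of astrocytes and is the marker most used for this state. Vimentin, the product of Vim, forms filaments together with it in reactive and immature astrocytes, and is also made by endothelial cells, fibroblasts and blood leukocytes. Serpina3n encodes a secreted inhibitor of serine proteases, a mouse counterpart of human alpha-1-antichymotrypsin, and is an acute phase gene that is induced in reactive astrocytes.

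In EAE spinal cord Serpina3n was strongly up-regulated, Gfap was moderately up-regulated and the Vim probe set did not pass the test. The fitted change, EAE over control, was 10.4-fold for Serpina3n (95% interval 9.04 to 12.0) and 1.67-fold for the brighter Gfap probe set (1.49 to 1.88). It was 1.60-fold for the dimmer Gfap probe set (1.23 to 2.08) and 0.995-fold for Vim (0.882 to 1.12). Because whole spinal cord was measured, more cells of a type and more RNA per cell cannot be told apart. In all, 3 of the 4 probe sets were called higher at an adjusted p under 0.05 in limma. Over all 12422 probe sets, 8.26% were called higher and 11.4% lower. On 2 of the 4, Gfap 94144_g_at and Serpina3n, every EAE array lay above every control array. Over all probe sets 10.9% showed this separation, and 15.1% lay below control on every array.

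STAT3, a transcription factor activated by cytokines of the interleukin 6 family, is known to drive Gfap in reactive astrocytes and acute phase genes in liver. The sequence around the start of the 2 genes that were higher is therefore shown, with the letters TTCNNNGAA, a STAT site, in capitals where they occur. Both are RefSeq sequences of assembly GRCm38.p6 and are written 5′ to 3′ on the strand of the gene. That of Gfap lies at chr11:102897194-102897450 on the minus strand and runs from 250 bases before the annotated start to the 7th base of the gene. That of Serpina3n lies at chr12:104406458-104406645 on the plus strand and holds the 188 bases of its window that precede the first annotated base of the gene, which lies upstream of the transcript start on which the window is set.
Gfap: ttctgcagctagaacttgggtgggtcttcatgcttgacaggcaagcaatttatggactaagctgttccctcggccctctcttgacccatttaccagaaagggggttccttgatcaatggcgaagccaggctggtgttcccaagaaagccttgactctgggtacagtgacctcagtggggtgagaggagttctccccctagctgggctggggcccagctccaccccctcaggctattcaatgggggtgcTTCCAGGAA
Serpina3n: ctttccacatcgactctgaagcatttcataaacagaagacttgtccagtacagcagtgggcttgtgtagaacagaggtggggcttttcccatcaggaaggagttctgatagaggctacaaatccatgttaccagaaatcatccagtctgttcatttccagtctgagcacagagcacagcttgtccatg
The search ran over both strands of the 300-base windows from 250 bases before to 50 bases after the start, in which all 3 genes were matched. The Gfap window held 1 STAT match, at base -2 to base 7 of the start, and those of Vim and Serpina3n held none. Of all 32851 windows 8.3% held such a match. The AP-1 site TGANTCA (7.81% of windows) and the C/EBP site TTGCNNAA (10.8%) were not found in the window of any of the 3 genes. The NF-kappaB site (8.46% of windows) was found 3 times in the window of Vim, with 2 of these matches overlapping, and in neither of the others. These are matches of letters and were not tested as binding sites.

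Serpina3n had the largest change of the 3 genes. Its log2 signal was 11.21, 11.41, 11.63, 11.33 and 11.64 on arrays EAE 1 to EAE 5, and 7.88, 7.87 and 8.35 on controls 1 to 3. The lowest EAE array was 2.86 log2 units above the highest control array. The EAE mean was 11.44 ± 0.19 (SD, n = 5), against a control mean of 8.03 ± 0.27 (SD, n = 3). With batch as a term the log2 fold change was 3.38 (standard error 0.0797, limma adjusted p = 0.000110). Within the 3 batches that held both an EAE and a control array, the change was 3.32, 3.54 and 3.28, or 10.0-fold, 11.6-fold and 9.73-fold. An exact permutation test, which redistributed the 8 arrays between groups in all 56 ways, gave p = 0.0179 (two-sided), the smallest it can give. Of all probe sets, 48 (0.386%) had a larger rise. Serpina3n lies in a cluster of closely related genes, and none of the paralogs Serpina3c, Serpina3f, Serpina3g, Serpina3k and Serpina3m was represented by a probe set with 1 symbol. Whether their transcripts bind the Serpina3n probe set was not tested.

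**Figure D1:**
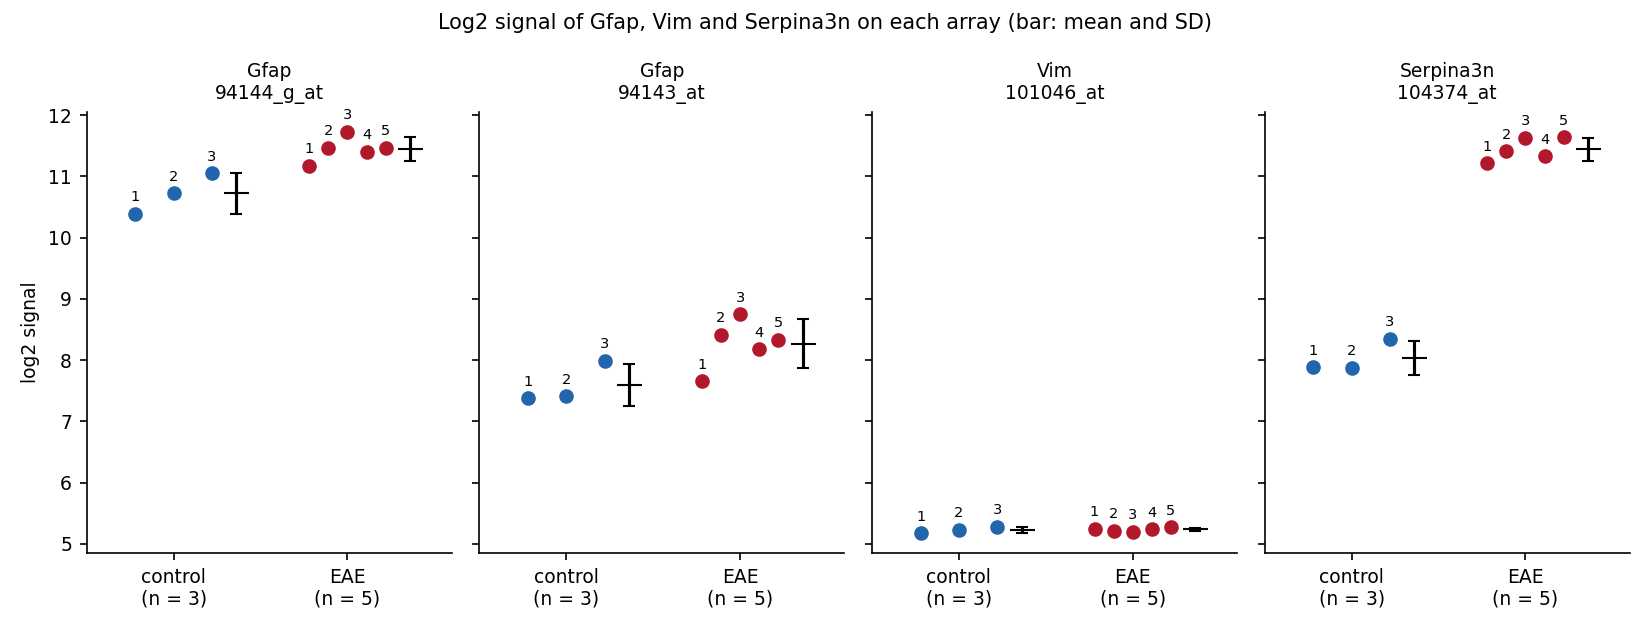
Log2 signal of each probe set of Gfap, Vim and Serpina3n on the 3 control and 5 EAE arrays, with each point 1 array labelled by its number and bars giving the mean and SD. Serpina3n lies at 7.87 to 8.35 in control and 11.21 to 11.64 in EAE, Gfap 94144_g_at is apart by 0.13, Gfap 94143_at overlaps and Vim stays between 5.18 and 5.28 on all arrays.

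Gfap was higher on both of its probe sets. On 94144_g_at the log2 signal was 11.17, 11.47, 11.73, 11.40 and 11.47 on EAE 1 to EAE 5, and 10.39, 10.72 and 11.05 on controls 1 to 3. The groups did not overlap, and the gap between EAE 1 and control 3 was 0.13. The means were 11.45 ± 0.20 (SD, n = 5) and 10.72 ± 0.33 (SD, n = 3). The log2 fold change was 0.74 (standard error 0.0656, limma adjusted p = 0.00326), with 0.79, 0.75 and 0.68 within the 3 paired batches. The range of the 3 control arrays, from 10.39 to 11.05, was close in width to the size of the change, while the differences within a batch varied little. The exact permutation test without batch gave p = 0.0179 (two-sided). A larger rise was found for 581 probe sets (4.68%), so Gfap stood far lower than Serpina3n among the genes up-regulated in EAE.

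The second Gfap probe set, 94143_at, gave a log2 signal of 7.65, 8.42, 8.75, 8.18 and 8.33 on EAE 1 to EAE 5, and of 7.38, 7.41 and 7.99 on controls 1 to 3. Here the groups overlapped, since EAE 1 was 0.34 below control 3. The means were 8.27 ± 0.40 (SD, n = 5) and 7.59 ± 0.34 (SD, n = 3). The log2 fold change was 0.68 (standard error 0.149, limma adjusted p = 0.0364), with 0.27, 1.00 and 0.76 within the paired batches. Without the batch term it was 0.67 and did not pass (adjusted p = 0.0876), and the exact permutation test gave p = 0.0714. It also failed without an array of batch 2 (0.51, adjusted p = 0.115) or of batch 3 (0.64, adjusted p = 0.186). The changes on the 2 Gfap probe sets differed by 0.06, and this difference did not pass the exact permutation test (p = 0.696), with within-batch differences of 0.51, -0.25 and -0.08.

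The Vim probe set was flat and dim. Its log2 signal was 5.25, 5.22, 5.20, 5.24 and 5.27 on EAE 1 to EAE 5, and 5.18, 5.23 and 5.28 on controls 1 to 3. The EAE arrays lay wholly within the range of the controls. The means were 5.24 ± 0.03 (SD, n = 5) and 5.23 ± 0.05 (SD, n = 3). The log2 fold change was -0.01 (standard error 0.0683, limma adjusted p = 0.965), with a 95% interval of -0.18 to 0.17 and within-batch changes of 0.07, -0.01 and -0.08. The exact permutation test gave p = 0.768. The deposited values carry no detection call. The 4 probe sets of the array for yeast transcripts, which mouse RNA should not bind, had log2 signals of 3.63 to 5.39 on single arrays. Vim, at 5.18 to 5.28, lay inside that range on every array. It lay above the 15 probe sets for Bacillus subtilis transcripts, at 3.76 to 5.09 on single arrays. Of all probe sets, 26.3% were dimmer. Vim is a marker of the reactive state, and its only probe set gave no change that passed the test. Whether this probe set reports the vimentin transcript was not tested.

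**Figure D2:**
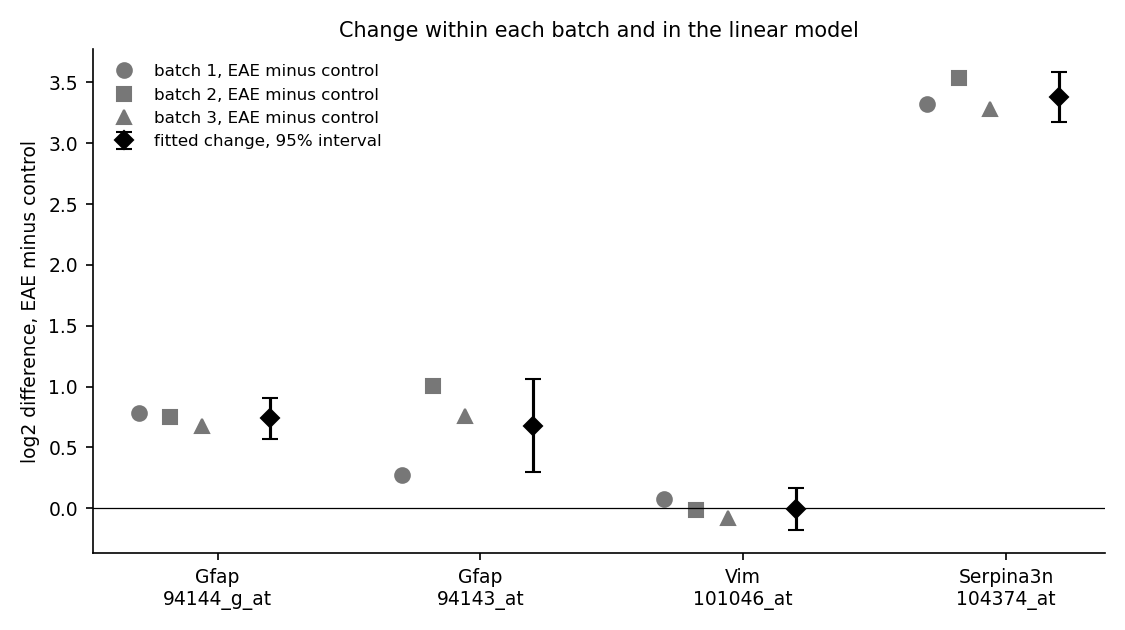
Log2 difference, EAE minus control, of each probe set within batches 1, 2 and 3 (grey) and in the linear model with its 95% interval (black). Serpina3n lies at 3.28 to 3.54, Gfap 94144_g_at at 0.68 to 0.79 and Vim at -0.08 to 0.07 in the 3 batches, and Gfap 94143_at has the widest spread, from 0.27 to 1.00.

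The sizes of the changes were compared directly, on the log2 difference between 2 genes on each array, with the brighter probe set standing for Gfap. Serpina3n rose by 2.68 log2 units more than Gfap, which makes a ratio of 6.40 between the 2 fold changes. Within the paired batches this difference was 2.54, 2.78 and 2.60. The exact permutation test (two-sided) gave p = 0.0179 for it, the smallest it can give, and 0.0179 after adjustment over 3 pairs of genes. The differences against the Vim probe set, 3.40 for Serpina3n minus Vim and -0.72 for Vim minus Gfap, are close to the differences between group means of Serpina3n (3.41) and Gfap (0.73) themselves, since that probe set was flat. They give no comparison with the vimentin transcript.

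**Figure D3:**
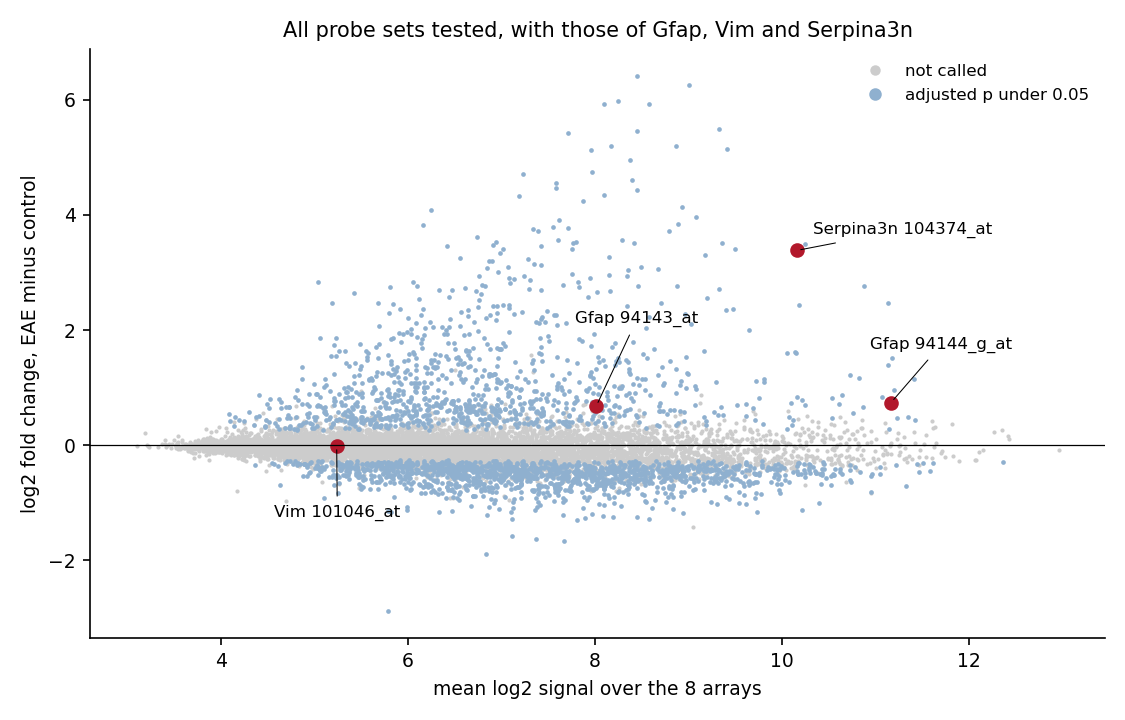
Log2 fold change, EAE minus control, against the mean log2 signal over the 8 arrays for 12422 probe sets, with those called at an adjusted p under 0.05 in blue and those of Gfap, Vim and Serpina3n in red. Serpina3n at 3.38 is exceeded by 48 probe sets and Gfap 94144_g_at at 0.74 by 581, and Vim at -0.01 is not called.

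The EAE arrays kept nearly the same order on the probe sets that changed. EAE 1 was the lowest and EAE 4 the next lowest EAE array on both Gfap probe sets and on Serpina3n. EAE 3 was the highest on both Gfap probe sets, and on Serpina3n EAE 5 and EAE 3 were highest. Relative to the EAE mean, EAE 1 lay at -0.28 on Gfap 94144_g_at, -0.61 on Gfap 94143_at and -0.24 on Serpina3n, and EAE 3 at 0.28, 0.48 and 0.19. Control 3 was the highest control on all 4 probe sets, at 0.33, 0.40 and 0.31 above the control mean on the 3 that changed and at 0.05 on Vim. EAE 3 and control 3 belong to the same batch. EAE 3 was also the only array from day 17, so day, batch and pool cannot be told apart.

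RNA quality also differed between the arrays. The log2 difference between the 3′ and 5′ probe sets of the Gapdh control, which grows as RNA degrades or its copying is incomplete, was 1.46, 0.65, 0.46, 2.07 and 0.78 on EAE 1 to EAE 5. On controls 1 to 3 it was 0.53, 0.97 and 0.93. The same difference for beta-actin was 1.10 on EAE 3 and 2.35 and 2.79 on EAE 1 and EAE 4, against 1.62 to 2.29 on the controls. The 2 EAE arrays with the largest values were those with the lowest Gfap and Serpina3n signal in EAE. Among controls the order depended on the control gene. Control 1 had the smallest Gapdh difference (0.53) but the lowest Gfap signal on both probe sets. Control 3 had the smallest beta-actin difference (1.62) and the highest Gfap and Serpina3n signal. Without EAE 1 and EAE 4 and without the batch term the log2 fold change was 3.52 for Serpina3n, 0.84 for Gfap 94144_g_at and 0.90 for Gfap 94143_at (adjusted p = 1.07e-05, 0.0174 and 0.0197). Since these were the lowest EAE arrays on the 3 probe sets, their omission had to raise each difference. This alternative was chosen after the values were seen. Array medians lay between 6.08 and 6.13, and no pair of arrays had a Pearson correlation under 0.931 over all probe sets.

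**Figure D4:**
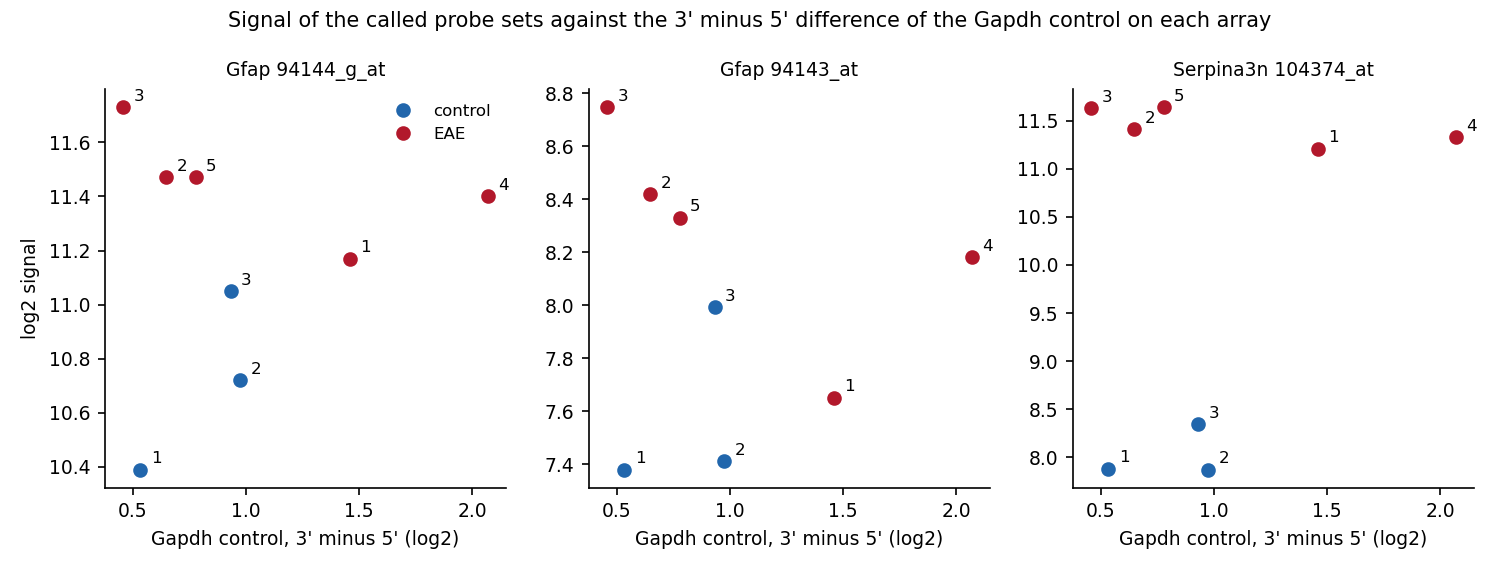
Log2 signal of the 3 called probe sets on each array against the log2 difference between the 3′ and 5′ Gapdh control probe sets, with control arrays in blue and EAE arrays in red, labelled by number. EAE 1 and EAE 4, at 1.46 and 2.07, have the lowest Gfap and Serpina3n signal among the EAE arrays, and EAE 3, at 0.46, has the highest Gfap signal.

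Other genes of reactive astrocytes were read from lists in which each gene stood for itself by its brightest probe set. Over all 8251 genes, 9.19% were called higher and 13.5% lower, and the median log2 fold change was -0.05. Of 13 pan-reactive genes, the list that holds Gfap, Vim and Serpina3n, 11 were measured, 7 were higher and none was lower. Of the 8 measured genes other than these 3, 5 were higher, with a median of 2.10. They were Lcn2, which encodes the iron-binding protein lipocalin 2 (5.97), Cp, the copper-carrying ferroxidase ceruloplasmin (3.72), and Cxcl10, a chemokine for T cells (3.35). Timp1, an inhibitor of matrix metalloproteinases (2.27), and Osmr, the receptor chain for oncostatin M (1.92), were higher as well. S1pr3 (0.23), Hspb1 (-0.03) and Cd44 (-0.07) did not pass, like Vim. Hspb1 was dimmer than Vim, with mean log2 signals of 3.98 in EAE and 4.02 in control, and Cd44 had 5.83 and 5.87. Whether these probe sets report their transcripts was not tested. All 5 of the higher genes thus had a larger fitted change than Gfap, and Cp a larger one than Serpina3n. That of Lcn2 was larger too on its brightest probe set. As the mean over its probe sets it fell to 3.43, little above the 3.38 of Serpina3n.

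The neuroinflammation-associated (A1) list had 7 of 13 genes measured and all 7 were higher, with a median log2 fold change of 3.51. The largest were Iigp1 (5.50) and Gbp2 (5.20), GTPases induced by interferon, Psmb8 (4.75), a subunit of the immunoproteasome, and H2-D1 (3.51), a class I histocompatibility gene whose probe set may also bind transcripts of related genes. Of the injury-associated (A2) list 8 of 12 genes were measured and 6 were higher, with a median of 1.27. These included Cd14, a coreceptor for bacterial lipopolysaccharide (2.34), the pentraxin Ptx3 (2.05), the prostaglandin synthase Ptgs2 (1.55) and the membrane protein Emp1 (1.47). Many of these genes are not particular to astrocytes, and Cd14 also stands in the macrophage list.

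Read from their brightest probe sets, homeostatic astrocyte genes were lower or did not pass. None of the 13 measured, of 21 listed, was higher and 5 were lower, with a median log2 fold change of -0.39. They were Ntsr2, a neurotensin receptor (-1.11), Id4, an inhibitor of helix-loop-helix transcription factors (-0.85), Sparcl1, a secreted matrix protein (-0.70), Slc4a4, a sodium bicarbonate cotransporter (-0.56), and the calcium-binding protein S100b (-0.50). The glutamate transporter Slc1a2 (0.20), the water channel Aqp4 (0.26) and glutamine synthetase, Glul (-0.02), did not pass. The mean log2 signal of the list was 8.61 to 8.96 in EAE and 9.14 to 9.26 in control, and was lowest on EAE 4 and EAE 1, the arrays with the largest 3′ to 5′ differences. Without these arrays and the batch term 5 genes of the list were called lower. Without an array of batch 3 the count was 1. With the mean over the probe sets of a gene, 5 were called lower and 1 was called higher.

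**Figure D5:**
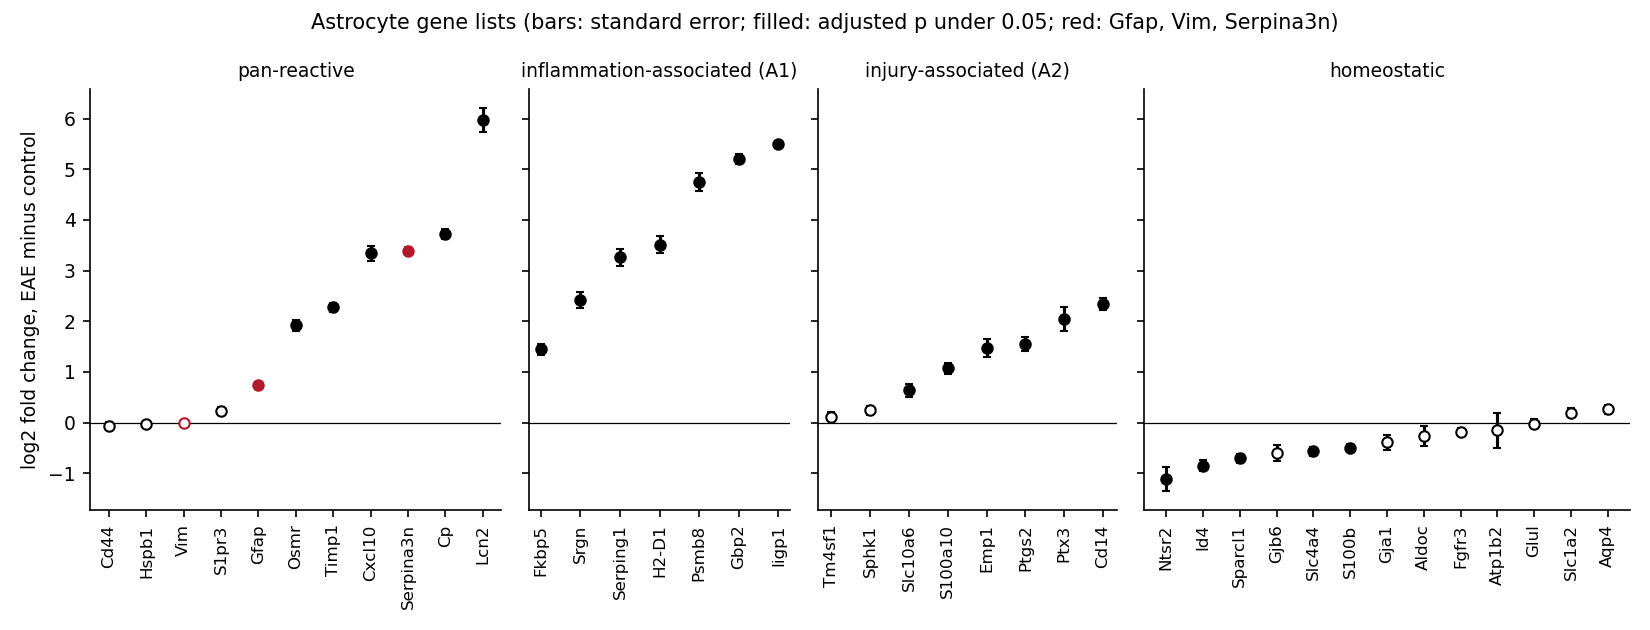
Log2 fold change, EAE minus control, of each measured gene of the 4 astrocyte lists with its standard error, filled where the adjusted p was under 0.05 and red for Gfap, Vim and Serpina3n. All 7 measured A1 genes are higher, at 1.45 to 5.50, Gfap is the smallest of the 7 pan-reactive genes called at 0.74, and the homeostatic genes lie between -1.11 and 0.26.

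Of 19 measured genes of intermediate filaments and their partners, 2 were higher (10.5%) and 4 were lower (21.1%), with a median log2 fold change of -0.03. These shares are to be read against the 9.19% higher and 13.5% lower of all genes. Nes, which encodes the filament protein nestin of progenitors and reactive astrocytes, was higher (0.95, standard error 0.118, limma adjusted p = 0.00815). The mean over the probe sets of Nes gave 0.48, and the call was lost without an array of batch 3 (adjusted p = 0.0586) and without the batch term, EAE 1 and EAE 4 (adjusted p = 0.0554). Ina also lost its call without an array of batch 3 (adjusted p = 0.0604). Lgals3, a galectin made in quantity by macrophages, had the largest rise (3.77). The 4 lower genes were Nefh (-0.69) and Ina (-0.63), Prph (-0.51) and Krt10 (-0.50), of which the first 3 form neuronal filaments. On Prph and Krt10 the groups overlapped. Nefm (-1.42) and Nefl (-0.42) did not pass, but lay below control on every EAE array, as did 1377 of all 8251 genes. The other keratins measured, Krt8, Krt18 and Krt19, and desmin, Des, had changes of -0.03 and did not pass.

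Of 16 other serpins measured, 2 were higher and 2 were lower, 12.5% each, and 12 did not pass, with a median log2 fold change of -0.01. The shares are near those over all genes. Serping1, the inhibitor of complement C1 (3.27), and Serpinb9, an inhibitor of granzyme B (1.20), were higher. Serpind1, or heparin cofactor II (-0.71), and Serpini1, the neuronal serpin neuroserpin (-0.66), were lower, the latter not without an array of batch 3 (adjusted p = 0.0581). None of the 16 had a larger rise than Serpina3n.

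Of 29 measured ligands, receptors and STAT3 signalling genes of astrocyte reactivity, 16 were called higher (55.2%) and none was called lower. The median log2 fold change was 0.43. Of all genes, 9.19% were called higher and 13.5% lower. Bmp4 (-0.25) did not pass, but lay below control on every EAE array. Among ligands Il6 (1.26), Il1a (1.58), Il1b (2.21), Tnf (0.38) and Tgfb1 (1.17) were higher. Among receptors Osmr, Il1r1 (1.26), Tnfrsf1a (1.21), Il6ra (0.43) and Il6st (0.45), the shared chain of the interleukin 6 family, were higher, while Lifr (-0.07) and Cntfr (-0.03) did not pass. Jak2 (0.51, with groups that overlapped) and Stat3 (0.63) were higher, and so was Socs3, the feedback inhibitor that STAT3 induces (2.29). The largest rises were those of the C/EBP transcription factors Cebpd (3.51) and Cebpb (3.47), followed by the complement subunit C1qa (2.76), which is made by microglia.

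Markers of macrophages and microglia were mostly higher as well, and so were some genes of the other lists. Among EAE arrays the mean of the macrophage and microglia list was lowest on EAE 2, not on EAE 1. Of all 8251 genes, 9.19% were called higher and 13.5% lower, while 978 lay above and 1377 below control on every EAE array. Of 20 macrophage and microglia markers, all measured, 18 were higher, among them Lyz2 (5.93), C1qb (3.56), Mpeg1 (3.41) and C1qc (2.76), and the mean log2 signal of the list was 8.16 to 8.70 in EAE and 6.24 to 6.35 in control. The median log2 fold change was 2.22. Over all their probe sets the mean change was 3.42 for Lyz2, 1.97 for C1qb and 1.64 for Mpeg1. Cx3cr1 (0.00) and Fcgr3 (0.06) did not pass. Of 10 neutrophil markers, with a median of 0.35, 5 were higher, led by S100a8 (4.54) and S100a9 (3.40), with a mean of 6.52 to 6.88 in EAE and 5.48 to 5.55 in control. T cell markers, with a median of 0.26, were higher in 5 of 11, with a mean of 6.01 to 6.11 against 5.75 to 5.86. The largest were Cd2 (0.67) and Cd3e (0.66). Cd3e, Cd28 (0.52) and Cd5 (0.48) were not called without an array of batch 3, nor Cd28 without one of batch 2. Cd3g (0.26), Cd4 (0.17) and Cd8a (0.11) did not pass, but lay above control on every EAE array. The lower gene Thy1 (-0.32) is also strongly expressed by neurons. Of 15 endothelial and pericyte markers 4 were higher, among them Tagln (2.86) and Vwf (2.17, or 1.06 over all its probe sets). Rgs5 (-0.54, or -0.34 over all its probe sets) was lower, though not without an array of batch 2, and 10 did not pass, of which Kdr (-0.28) and Tek (-0.27) lay below control on every EAE array. The median of this list was 0.05, with a mean of 6.27 to 6.49 against 5.99 to 6.04. Of 15 fibroblast and meningeal markers 3, Fn1 (1.32), Igfbp2 (1.24, not without the batch term, adjusted p = 0.0839) and Dcn (1.15), were higher. On Igfbp2 the groups overlapped. The other 12 did not pass. Of these, Col1a1 (0.36) lay above control on every EAE array, and Igf2 (-0.54) and Fbln1 (-0.10) lay below. The median was 0.00, with a mean of 7.30 to 7.61 against 7.16 to 7.21. Of 11 ependymal and progenitor markers 4 were higher, among them Tnc (1.35), Nes and Vcan (0.44), and Prom1 (-0.71) was lower. The last 3 lost their calls without an array of batch 3, and Vcan also without one of batch 1 or 2. The median was 0.02, with a mean of 6.95 to 7.27 against 6.86 to 6.92. The part of these cells in the signal of Gfap and Serpina3n was not tested.

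The genes whose course over the 8 arrays came closest to each marker were found by the root mean square difference between log2 profiles centred on the control mean. Those nearest to Gfap were Zfp36, which speeds the decay of cytokine transcripts (0.106), Lrp10, of the low density lipoprotein receptor family (0.111), and Rab3d, a GTPase of regulated secretion (0.153). Those nearest to Serpina3n were Serping1 (0.219), S100a9 (0.236) and Psmb9, a subunit of the immunoproteasome (0.284). Vim had 1846 genes within 0.1 of its flat course, against 0 genes for Gfap and for Serpina3n, and the nearest were Cryba1 of the eye lens (0.0146), Klf1 of red cell precursors (0.0186) and Dsc1 of the epidermis (0.0214).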

How the data were processed

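RNA of whole spinal cord was hybridized to 8 MG U74Av2 arrays, 5 EAE and 3 control. The log2 values are as deposited by the authors, who used RMA with GC adjustment, quantile normalization and log2 transformation in Partek Genomics Suite. Versions of these tools are not given in the sources used here. RMA makes log ratios smaller for dim probe sets. No second normalization was applied. Groups and batches were read from the sample labels, where the batch equals the replicate number, and controls share their day of death with EAE mice.

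limma 3.58.1 (lmFit and eBayes, R 4.3.3) fitted treatment and batch, 2 residual and 3.05 prior degrees of freedom, and two-sided p-values adjusted by Benjamini-Hochberg over 12422 probe sets. The 66 control probe sets of the array did not enter the fit, and dim probe sets were kept. Since batches 4 and 5 held only EAE arrays, the fitted change rests on batches 1 to 3, and EAE 4 and EAE 5 enter the means, the exact tests and the fits without batch. Same-numbered arrays deviated from their group means with correlations of 0.302, -0.231 and 0.412 in batches 1 to 3, so the pairing rests on the batch in the labels. The array annotation gave 1 symbol to 10833 probe sets, several to 396 and none to 1193. The probe set with the highest mean stood for a gene in lists and in pairs of genes. Single values and differences between genes were tested by exact permutation over 56 regroupings.

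The genes and the 13 lists (219 genes, 179 measured) were chosen with earlier results of these data known, so no list has a test of its own. Named genes are the 3 markers, up to 4 genes with the largest change among those that passed in each list, and the 3 nearest to each marker. Further genes named in the text were picked from the lists with their values seen. Alternatives were no batch term, a random batch block, no moderation of variances, an intensity trend, arrays centred on their medians, renewed quantile normalization, array weights, omission of dimmer probe sets, averaging of a gene's probe sets and omission of each array in turn. Omission of EAE 1 and EAE 4 together was added after the data were seen. The fit was tested on simulated data. Precision is limited by how few arrays there are. matplotlib 3.10.9 drew the figures.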

Additional observations from a re-analysis of the deposited data

Results flagged for a closer look

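Of 69 sets of EAE values checked for 1 array far from the rest, 4 were marked, where chance marks about 1 in 20. None was a probe set of Gfap, Vim or Serpina3n. The control arrays were too few for this check. H2-D1 had a log2 signal of 11.37 on EAE 3, against 10.29 to 10.57 on the rest of the group. For the macrophage and microglia list, the mean was also highest on EAE 3, at 8.70 against 8.16 to 8.30. Slc4a4 was lowest on EAE 4, at 6.57 against 7.32 to 7.60. Lgals3 was lowest on EAE 2, at 8.72 against 9.24 to 9.31.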

How the results depend on the processing

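Serpina3n and Gfap 94144_g_at were higher under every alternative run except the model without moderation of variances, which has 2 residual degrees of freedom. There the log2 fold changes of 3.38 for Serpina3n, 0.74 for Gfap 94144_g_at and 0.68 for Gfap 94143_at had adjusted p = 0.106, 0.122 and 0.289, and of all probe sets 1 was called higher and 0 lower. Over the alternatives the adjusted p of limma ranged from 3.14e-07 to 0.106 for Serpina3n, from 0.00205 to 0.122 for Gfap 94144_g_at, from 0.010 to 0.289 for Gfap 94143_at and from 0.724 to 0.997 for Vim.

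Without the replicate block the change of Gfap 94143_at was 0.67 and did not pass (adjusted p = 0.0876), and with single arrays left out it ranged from 0.51 to 0.88, losing the call without an array of batch 2 (adjusted p = 0.115) or batch 3 (adjusted p = 0.186). The change of Vim turned positive but stayed near 0 without the block (0.0066), with a random block (0.0037), with array weights (0.0043) and without the block and EAE 1 and EAE 4 (0.000497), and ranged from -0.0464 to 0.0291 with single arrays left out. It has no value among brighter probe sets only, which leave Vim out. With single arrays left out the probe sets called ranged from 521 to 1026 higher and from 225 to 1412 lower, both lowest without an array of batch 3, and the homeostatic genes called lower from 1 to 5. With the mean over the probe sets of a gene the change of Gfap was 0.71 (adjusted p = 0.00669) and 1 homeostatic gene was called higher. Apart from these losses and those without moderation, the block and the alternatives run changed no call of a Gfap, Vim or Serpina3n probe set. For the differences between the 3 genes the adjusted p was 0.0286 to 0.0476 with single arrays left out, the smallest that 7 arrays allow, which says nothing about stability. For 49 other named genes, 775 of 877 comparisons kept direction and call, 102 lost the call (49 without moderation, 26 without an array of batch 3) and 0 reversed. Counts for the other lists stayed within 1.5 times in 226 comparisons and moved further in 38. The cause of these shifts was not tested. With the batch term, omission of EAE 4 or EAE 5 repeats the main fit, and omission of either array of a paired batch gives the same fit. Such comparisons were fixed in advance or counted more than once, so these tallies do not measure stability.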
